A study of Mus musculus with 148 samples.

Results

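PMN-MDSCs are polymorphonuclear myeloid-derived suppressor cells, a neutrophil state of tumor-bearing hosts that is named for restraining T cells. The cells described here are the wells that the authors' cell annotation places under the neutrophil label PMN-MDSC, 139 of 3972 annotated neutrophils (3.50%) and 0.593% of 23425 annotated immune cells. The other neutrophils carried 4 labels named after a gene, Neut_Lcn2 (1604 cells), Neut_Ptgs2 (1492), Neut_Ifit3 (639) and Neut_Camp (98). No well was listed more than once, and all 139 wells had been sorted as 1 cell each.

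Immune cells were profiled by SPID-seq, a plate-based method that counts unique molecular identifiers (UMIs) at the 3' ends of transcripts, in 63 samples of 27 mice. All mice were PA-GFP C57BL/6 females, whose cells carry a photoactivatable GFP. Except in the control mice, EO771 breast cancer cells labeled with tdTomato were injected into the right inguinal mammary gland at 8 weeks of age. Primary tumors were resected at 3 weeks in the mice followed for metastasis. Control samples were lungs without a tumor, and Pre-MET samples were lungs of mice that still bore the primary tumor. Primary tumors were sampled from mice 8, 9 and 10, which also gave the Pre-MET lungs, and from mouse 38. Lungs with metastases gave distal normal tissue, metastasis tissue (MET) and, by photoactivation of a chosen region (NICHE-seq), the metastasis core and the invasive margin. Relapse-free lungs came from resected mice without metastases. Control, Pre-MET, primary tumor, distal normal and MET cells were sorted as CD31- CD45+, and core and margin cells as CD31- GFP+, on part of the core plates with CD45 as well. Relapse-free plates of mice 6 and 7 had mixed gates. Part of the invasive margin plates were labeled as photoactivated outside a metastasis.

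Neutrophils are short-lived granulocytes that carry the calprotectin subunits S100a8 and S100a9 and preformed granules, and they follow chemokines through receptors such as Cxcr2. When they are retained in a tumor they can turn to secreting chemokines, which recruit further leukocytes, and to displaying checkpoint ligands such as PD-L1 (Cd274), which engages PD-1 on T cells. IL-1 signaling is set by the agonists Il1a and Il1b against the secreted receptor antagonist Il1rn.

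The cells lay in 23 samples of 17 mice. Mouse 17 gave 38 of them and mouse 37 gave 31, together 49.6%, and 72 lay in the metastasis core and 36 in MET. For expression, UMIs were summed per mouse and tissue, and the 10 sums that held at least 5 cells were kept (120 cells of 8 mice). They were the metastasis cores of mice 17 (30 cells, 38968 UMIs), 37 (24 cells, 31113 UMIs), 28 (6 cells, 4873 UMIs) and 36 (6 cells, 5385 UMIs), the MET samples of mice 31 (10 cells, 13776 UMIs), 32 (13 cells, 10781 UMIs) and 37 (7 cells, 6583 UMIs), the invasive margin of mouse 17 (8 cells, 8764 UMIs), the relapse-free lung of mouse 7 (11 cells, 10630 UMIs) and the primary tumor of mouse 10 (5 cells, 3570 UMIs). The remaining 19 cells lay in 13 samples with fewer than 5 and enter the shares but not the sums. Other neutrophils of the same samples gave 10270 to 466120 UMIs. The median of UMIs per cell ranged from 626 to 1280 over the samples in PMN-MDSCs and from 725 to 2417 in the other neutrophils, and was higher in PMN-MDSCs in 1 of 10 samples. Mitochondrial genes took 0.456% to 3.67% of the UMIs, against 0.817% to 2.70%.

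Some of these sums stood apart before any comparison. Basophil genes were read in 12 of 139 PMN-MDSC cells (8.63%) at 2 or more UMIs and in 0 of 3833 other neutrophils, with 176 UMIs against 6 in all. The 8 basophil genes (Mcpt8, Fcer1a, Ms4a2, Cd200r3, Gata2, Cpa3, Cyp11a1 and Il4) were listed after their values had been seen. In the relapse-free sum of mouse 7, 6 of 11 cells held such UMIs, 94 in total, of which 29 were from Fcer1a, a subunit of the IgE receptor, and 25 from Mcpt8, a basophil protease. Both PMN-MDSC cells of the distal normal tissue (mouse 26, 61 UMIs), the only cell of relapse-free mouse 6, the only cell of relapse-free mouse 11, 1 of 6 core cells of mouse 28 and the only core cell of mouse 32 made up the rest. The primary tumor sum of mouse 10, the smallest, had 0 UMIs of several genes that all metastasis sums held, among them Cstb and Tyrobp. Results are therefore given over all 10 sums and, where it matters, over the 7 sums of MET and metastasis core.

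The mean share of PMN-MDSCs among the neutrophils was higher in the metastasis core and in MET than in distal normal tissue over all samples, but neither call held when tissues were paired by mouse (adjusted p = 0.125 for each, exact sign-flip permutation test). With some mice at 0% in both tissues, that paired test could not reach an adjusted p below 0.05. Over samples with at least 5 neutrophils, the share was 17.1% ± 14.3 (SD, n = 7) in the metastasis core, with 0% in mice 26 and 34, 13.3% in mouse 17, 14.3% in mouse 30, 25.5% in mouse 37, 31.6% in mouse 28 and 35.3% in mouse 36. In MET it was 3.36% ± 3.47 (SD, n = 9), from 0% to 10.7% with a median of 3.77%. Distal normal tissue gave 0.0909% ± 0.302 (SD, n = 11), since 10 of its 11 samples had none, and the 2 cells of the eleventh were those with basophil genes. In the invasive margin, mouse 17 had 2.33% (8 of 343 neutrophils, 95% Wilson interval 1.19% to 4.53%) and the other 4 samples had 0%, a mean of 0.466% ± 1.04 (SD, n = 5). The 2 core samples at 0% held 18 and 6 neutrophils, and the 4 margin samples at 0% held 90, 15, 12 and 28, so shares of up to 4.09%, 20.4%, 24.2% and 12.1% lay within the 95% Wilson intervals of the latter.

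In primary tumors the shares were 12.5%, 0%, 38.5% and 7.69% of 8, 6, 13 and 13 neutrophils in mice 8, 9, 10 and 38, a mean of 14.7% ± 16.7 (SD, n = 4). Pre-MET lungs had 1 cell among 170 neutrophils, 0.498% ± 0.862 (SD, n = 3), and control lungs had 0 of 80 over 3 mice, which allows a share of up to 3.75% (taking 3 cells of the total as the limit), while the upper 95% Wilson limits of the single lungs were 9.64% to 22.8%. Relapse-free lungs gave 1.97% ± 2.52 (SD, n = 5), and without the cells that held at least 2 UMIs of basophil genes 0.535% ± 1.20, all of it from mouse 7. Without those cells distal normal tissue had 0 of 1373 neutrophils, and the metastasis core kept 16.6% ± 13.7. Intervals and limits cover counting error only.

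**Figure D1:**
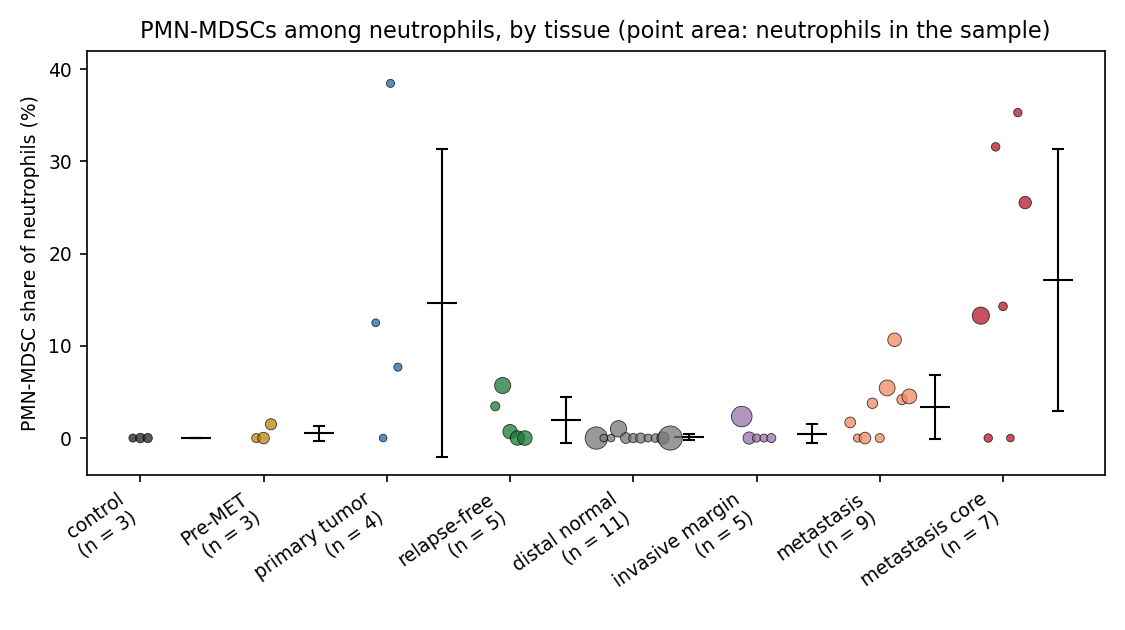
PMN-MDSC share of annotated neutrophils (y axis, percent) in each sample with at least 5 neutrophils, by tissue (x axis), with point area growing with the sample's number of neutrophils and black bars giving the mean and SD over samples. Metastasis core and primary tumor samples spread from 0% up to 35.3% and 38.5%, MET samples reach 10.7%, and distal normal samples stay at or below 1.00%.

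The core exceeded distal normal tissue by 17.0 percentage points (two-sided exact permutation test over 7 and 11 samples, p = 0.0049, Benjamini-Hochberg adjusted over 6 comparisons 0.0147), and MET exceeded it by 3.27 points (exact permutation p = 0.00433, adjusted 0.0147). The tissues came from the same mice, and with the mouse as a replicate block neither call held. The share was higher in the core in 5 of 7 mice, by 17.0 points on average (exact sign-flip permutation p = 0.0625, adjusted 0.125), and higher in MET in 5 of 8 mice, by 2.32 points (exact sign-flip permutation p = 0.0625, adjusted 0.125). The mice without a higher share were mouse 26, the mouse of the 2 cells with basophil genes, and mice with 0% on both sides. Mice with 0% on both sides add nothing to the sign-flip test. Adjusted over the paired comparisons, it could therefore not reach a p below 0.05 here. So it cannot decide whether the difference holds within mice. Within sequencing batches, the core was above distal normal tissue in 3 of 4 batches that held both (0 to 30.4 points), and MET in 3 of 3 (1.09 to 6.27 points). MET and distal normal cells passed the same gate, whereas for the core the gate and the tissue cannot be told apart.

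The core exceeded the invasive margin by 16.7 points, which did not pass the threshold (exact permutation p = 0.0530, adjusted 0.106), and among 4 mice with both it was higher in 3. Both were sorted as GFP+ cells, but with CD45 added on part of the core plates, so their gates were not identical. Primary tumors exceeded the Pre-MET lungs by 14.2 points (exact permutation p = 0.229, adjusted 0.343). With 4 and 3 samples this two-sided test could not give a p below 0.05. From the core, primary tumors differed by -2.47 points (exact permutation p = 0.818, adjusted 0.982). The sign of that difference turned without primary tumor mouse 9 (2.41 points) or without core mouse 36 (0.552 points). In the 1 batch with both, the difference was -17.9 points (12.5% in 1 primary tumor against 30.4% in 2 cores). No batch held primary tumors with Pre-MET lungs. Core against margin was higher in 3 of 4 batches with both (0 to 30.4 points). The difference of 0.498 points between Pre-MET and control lungs had p = 1 in the exact permutation test, whose smallest possible value is 0.1. Taken over immune cells of every lineage, PMN-MDSCs were 3.16% ± 5.44 of the core (SD, n = 7), a mean carried by mouse 37 with 15.2%.

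The next comparison sets PMN-MDSCs beside the other neutrophils of the same sample. The labels were made from the same counts by clustering, so these differences are descriptions and carry no test. Levels are UMI counts of a sum scaled to a common total (CPM), and each ratio is a log2 ratio of CPM + 100 within a sample, averaged over 10 samples, which understates the difference of low genes. A gene was counted as higher or lower when the mean ratio was at least 1 in size and all 10 samples had the same sign. Of 6025 genes, 9 were higher (0.149%) and 45 lower (0.747%), and the median ratio over all genes was -0.10. Each PMN-MDSC sum was the shallower of its sample, so a gene with 0 UMIs there can count as lower but not as higher. Genes counted lower include Cwc25 with 0 UMIs and Fam129a with 1 UMI over the 10 PMN-MDSC sums. A mean above 0 was found for 2225 genes (36.9%). A mean of at least 1 in size regardless of single samples was reached by 86 genes upwards (1.43%) and 234 downwards (3.88%), and with the same sign in at least 8 of 10 samples by 52 (0.863%) and 208 (3.45%). The 9 higher genes were Ccl4, Ccl3, Il1rn, Mpeg1, Hcar2, Cdkn1a and 3 annotations whose counts are uncertain where near-identical copies exist (Gm15487, Rps19-ps6 and Mir692-1). Over the 7 MET and core sums alone, 41 of 4625 genes were higher (0.886%) and 85 lower (1.84%), with all 9 and 44 of the 45 genes among them. Without the relapse-free sum of mouse 7 the counts were 17 (0.3%) and 55 (0.97%) of 5671 genes, without the primary tumor sum 14 genes were higher, and without core mouse 28 the lower count rose to 90 of 5996 genes.

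The chemokines Ccl3 (MIP-1α, chromosome 11 from 83647844 to 83649355, mm10) and Ccl4 (MIP-1β, chromosome 11 from 83662584 to 83664683), both chemoattractants of leukocytes, had the highest mean ratios of the 6025 genes. Ccl3 lay between 3798 and 16417 CPM in PMN-MDSCs, with a median of 8400.4, and between 0 and 8763 CPM in the other neutrophils, with a median of 274. Its ratio was 4.10 ± 2.04 (SD, n = 10). The levels overlapped through the core of mouse 28, where the other neutrophils too were high. Ccl4 lay between 3922 and 52681 CPM, with a median of 20634, against 0 to 23369 CPM and a median of 409, a ratio of 4.14 ± 2.53. The largest Ccl4 level was that of the relapse-free sum of mouse 7, and the highest other neutrophils were again those of core mouse 28. Both genes were higher in 10 of 10 samples, also in the primary tumor.

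Of a list of 15 chemokines, 12 had enough UMIs to be described. Among them, Ccl3 and Ccl4 were counted higher and none lower, 9 had a mean above 0, and the list's median ratio was 0.34. Summed over the list, the level was higher in PMN-MDSCs in 10 of 10 samples (21008 to 80245 CPM against 7238 to 48783 CPM). Much of this sum was Ccl3 and Ccl4, with means of 9777 and 21981 of 47976 CPM. In the other neutrophils they had 1476 and 3786 of 15958 CPM. Ccl9 had a mean ratio of 1.25 ± 1.97 and the neutrophil attractant Cxcl3 of 1.01 ± 2.11, higher in 6 and 7 of 10 samples. Their spread exceeded the mean. Of the receptors, Cxcr2, which guides neutrophils to CXC chemokines, was lower in 9 of 10 samples, at a median of 369 CPM (0 to 1486) against 1506 CPM (1012 to 2451), a ratio of -1.80 ± 1.33. Ccr1, a receptor of Ccl3, differed little (0.32 ± 0.85, higher in 6 of 10). Ccrl2, an atypical receptor that binds chemerin, was higher in 9 of 10 samples (1.19 ± 1.06). No receptor of the 9 measured was counted higher or lower, while over the 7 MET and core sums 1 was counted higher.

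In the IL-1 system the antagonist and an agonist went opposite ways. Il1rn (chromosome 2 from 24336853 to 24351494) lay between 1681 and 12999 CPM in PMN-MDSCs, with a median of 5787, and between 182 and 1850.0 CPM in the other neutrophils, with a median of 721. Its ratio was 2.60 ± 1.42, and 3.05 ± 1.23 over the 7 MET and core sums. The 8 sums from metastases lay at 4982 CPM or above, beyond every sum of other neutrophils, whereas the primary tumor of mouse 10 had 1681 against 1680 CPM and a ratio of 0.00. Il1b (chromosome 2 from 129364570 to 129371139) was abundant in all neutrophils but lower in PMN-MDSCs in 9 of 10 samples, at a median of 7739 CPM (2446 to 16827) against 14713 CPM (10489 to 21077), a ratio of -0.87 ± 0.83. The invasive margin of mouse 17 was the exception. Il1b was given here as a marker of this label, but its mean level was not above that of the other neutrophils. The paper names Csf1 and Cd274 for these cells. Il1a had a mean of 1.13 ± 1.71 and was higher in 7 of 10 samples. Il1rap, the shared accessory chain of the IL-1 receptor, had -1.16 ± 1.38, and the decoy receptor Il1r2 had -1.12 ± 1.73, lower in 7. Of the 12 measured cytokine and IL-1 genes only Il1rn was counted, and the list's summed level was higher in 5 of 10 samples. Over the 7 MET and core sums 2 genes of the list were counted higher.

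Csf1, the macrophage growth factor that the study names for these cells, was higher in 9 of 10 samples, at a median of 749 CPM (0 to 2178) against 103 CPM (0 to 650.3), a ratio of 1.89 ± 1.44. It had 0 UMIs in the 8 cells of the invasive margin of mouse 17. Cd274, which encodes PD-L1 (chromosome 19 from 29367455 to 29388095), was higher in 7 of 10 samples with a ratio of 1.06 ± 1.92. Its mean level of 794 CPM was carried by the MET sum of mouse 31 with 5372 CPM, while the median was 246 CPM against 64.0 CPM. Neighbouring Pdcd1lg2, which encodes PD-L2, had 36 UMIs in 4 of the sums and close to none in other neutrophils (133 against 1.52 CPM on average). Of the 11 measured suppressive effectors and checkpoint ligands none was counted higher or lower, with a median ratio of -0.04, and of 0.21 over the 7 MET and core sums. Their summed level was higher in 9 of 10 samples (2822 to 10743 CPM against 2542 to 7790 CPM). The inhibitory receptor Lilrb4a had 0.97 ± 1.00 (higher in 8 of 10), whereas Vsir, which encodes VISTA, had -0.77 ± 0.97. Arg1, the arginase often used to define suppressor cells, had 0 UMIs in PMN-MDSCs and Il10 had 0, Nos2 had 2 UMIs, and Arg2 had a ratio of -0.61 ± 1.19. Ptgs2, which makes prostaglandins, did not differ in a steady direction (-0.04 ± 1.00, higher in 5 of 10). Among 15 measured genes of a list of MDSC surface and signature genes, none was counted higher and 2 were counted lower, Wfdc17 (-2.61 ± 1.09) and the activating receptor Trem1 (-1.74 ± 1.15), with a list median of -0.87. The lectin receptor Clec4d had 0.65 ± 0.65 and was higher in 8 of 10.

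**Figure D2:**
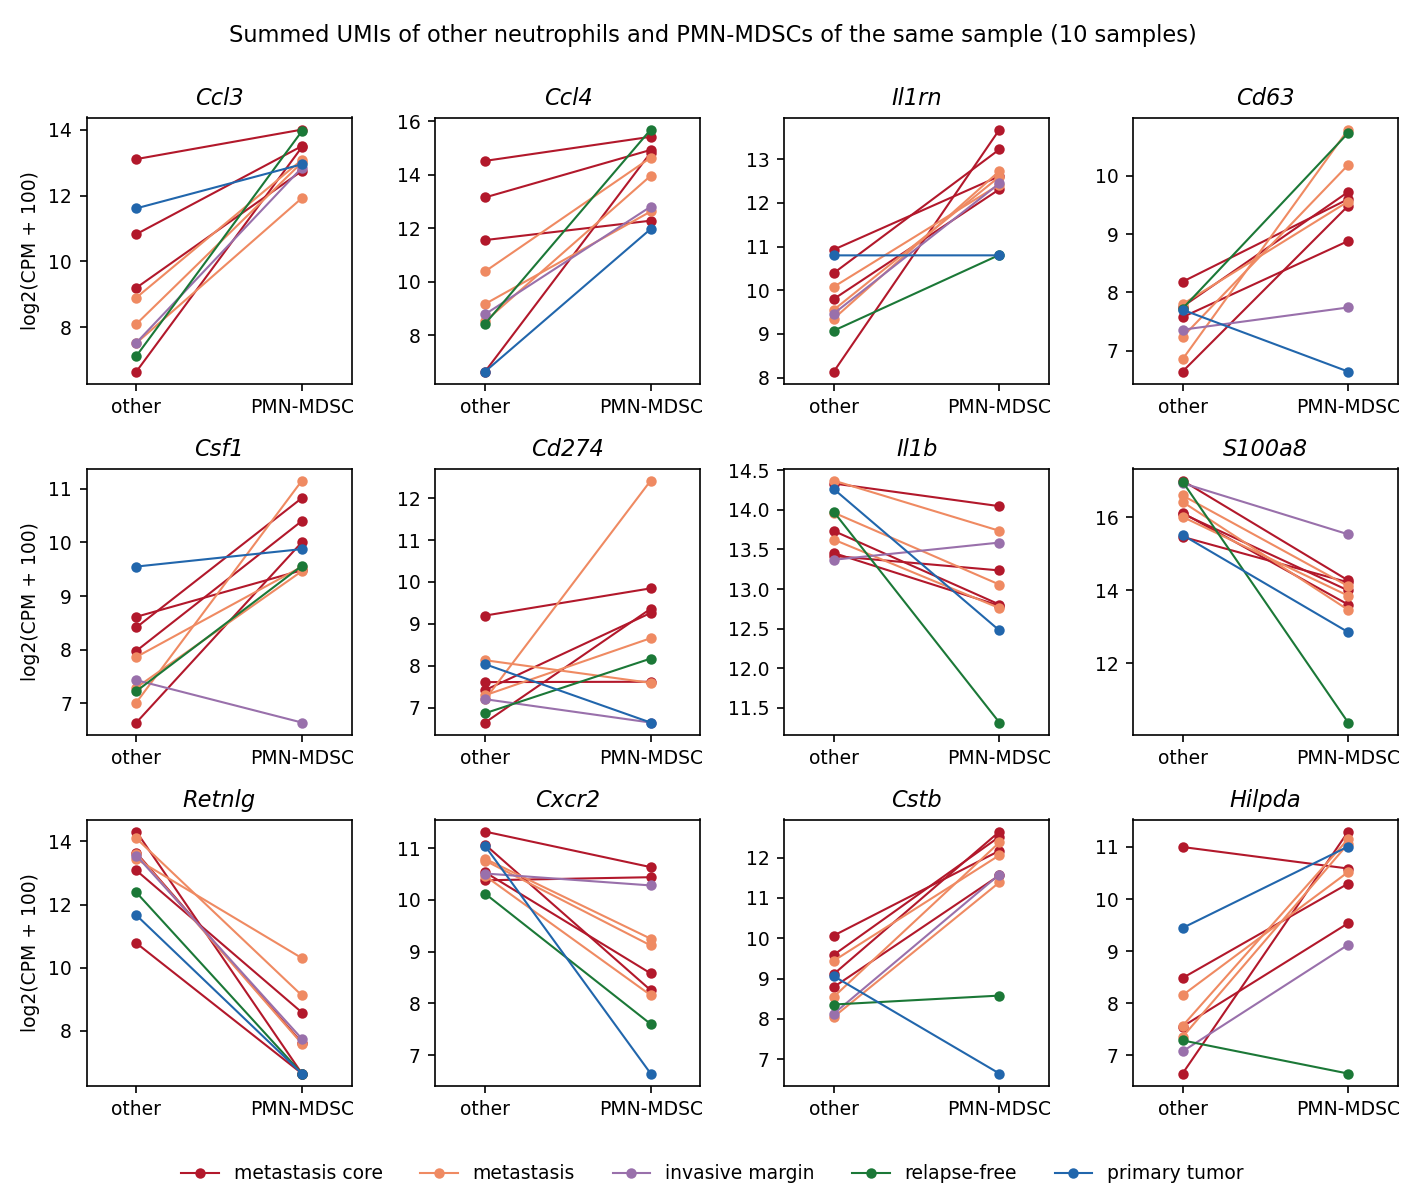
Levels of 12 genes (y axes, log2 of CPM + 100) in the summed other neutrophils and the summed PMN-MDSCs of the same sample, joined by a line for each of the 10 samples and colored by tissue. Ccl3 and Ccl4 go up in all 10 samples, S100a8 and Retnlg go down in all 10, Il1b goes down in 9, and the primary tumor sum had 0 UMIs of Cstb and Cd63 and the relapse-free sum 0 UMIs of Hilpda.

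None of the 19 measured lysosome and vesicle genes met the count rule over the 10 sums, while 7 had a mean of 1 or more and 17 a mean above 0, with a median of 0.81. Their summed level was higher in 10 of 10 samples (5738 to 30381 CPM against 3325 to 7595 CPM), and over the 7 MET and core sums 4 genes met the rule. Cd63, the other given marker and a tetraspanin of lysosomes and granule membranes (chromosome 10 from 128900989 to 128912822), was higher in 9 of 10 samples, at a median of 664 CPM (0 to 1670) against 99.6 CPM (0 to 191), a ratio of 1.85 ± 1.45. The primary tumor sum had 0 UMIs, and the margin sum, at 114 CPM, lay inside the range of the other neutrophils. A pseudogene, Cd63-ps, gave a similar ratio over the 7 MET and core sums (2.59 ± 1.04). Reads that mapped to more than 1 place were left out before counting, so the counts of such near-identical copies are uncertain. The protease Ctsb had 2.27 ± 1.53 and its inhibitor Cstb 2.24 ± 1.93, each higher in 9 of 10 samples. Over the 7 MET and core sums Cstb was at 3.02 ± 0.59, between 2582 and 6314 CPM against 165 to 974 CPM, with no overlap. The autophagy receptor Sqstm1 had 1.83 ± 0.77, with 0 UMIs on both sides in the primary tumor, and the cathepsin Ctsz had 1.70 ± 1.27.

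None of 15 measured hypoxia genes and none of 8 measured lipid handling genes was counted higher or lower. In the hypoxia list 12 had a mean above 0, with a median of 0.50, and the summed level was higher in 10 of 10 samples. Over the 7 MET and core sums 1 hypoxia gene was counted higher. In the lipid list 5 had a mean above 0, with a median of 0.12, and -0.05 over the 7 MET and core sums. Hilpda, which coats lipid droplets and is induced by hypoxia, was higher in 8 of 10 samples, at a median of 1402 CPM (0 to 2414) against 87.9 CPM (0 to 1947), a ratio of 2.07 ± 1.69. The relapse-free sum had 0 UMIs, and in core mouse 28 the other neutrophils were higher. The droplet protein Plin2 had 1.27 ± 1.57 and the cytokine Mif 1.21 ± 1.21, each higher in 8 of 10 samples. Glycolytic genes differed in either direction, with a median of 0.03 over 17 genes, and the isomerase Gpi1 was counted lower (-1.29 ± 0.63). The glucose transporter Slc2a3 had 0 UMIs in all 10 PMN-MDSC sums against a mean of 239.6 CPM.

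The ferritin chains Fth1 (1.28 ± 1.11) and Ftl1 (1.08 ± 0.88), which store iron, were higher in 9 of 10 samples, with the relapse-free sum as the exception, and both have processed copies, which makes their counts uncertain likewise. Heme oxygenase Hmox1 had 1.00 ± 1.17. Of the stress genes, Ddit3, which encodes the transcription factor CHOP, had 1.66 ± 2.44 and its activator Atf4 had 1.04 ± 1.57, higher in 7 and 8 of 10 samples, and no gene of the 8 measured was counted. Over the 7 MET and core sums 1 of these stress genes was counted higher. The cell cycle inhibitor Cdkn1a was higher in 10 of 10 (1.46 ± 0.95), as were Hcar2, the receptor for niacin and ketone bodies (1.57 ± 0.90), and Mpeg1, the pore-forming perforin-2 of phagocytes (1.95 ± 0.67). Mpeg1 lay between 280.1 and 1299.9 CPM against 25.4 and 306 CPM, and only the primary tumor sum fell inside the other range. Its 280.1 CPM is 1 UMI, so the sign of Mpeg1 in that sample rests on 1 UMI. Ier3 (2.03 ± 1.28) and Jun (1.68 ± 1.44) stood out among 23 immediate early and NF-κB genes, whose median was -0.22 with none counted, while Fosl2 had -1.80 ± 1.23. The secreted glycoprotein Spp1 had 2.43 ± 2.06 and was higher in 8 of 10 samples, from 0 CPM in MET mouse 37 and the relapse-free sum to 8856 CPM in MET mouse 31.

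**Figure D3:**
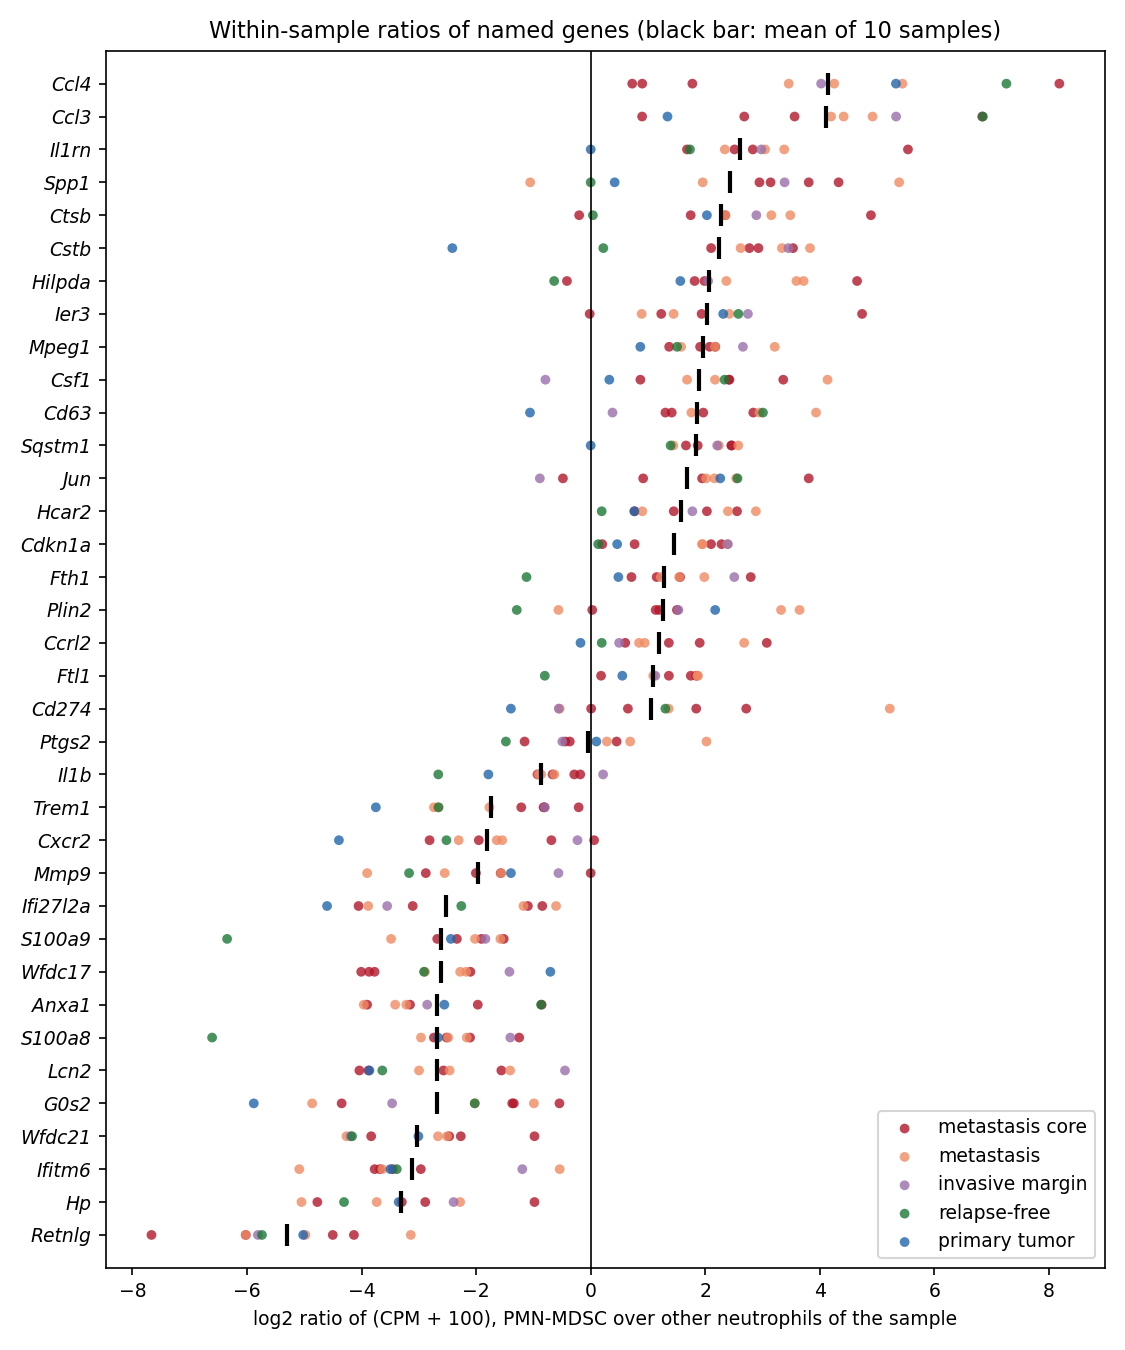
Within-sample log2 ratio of CPM + 100, PMN-MDSCs over other neutrophils (x axis), for 36 named genes (y axis), with 1 point per sample colored by tissue and a black bar at the mean of 10 samples. Ccl4 and Ccl3 have the highest means at 4.14 and 4.10 with all points above 0, and Retnlg has the lowest at -5.30 with all points below 0.

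The genes by which neutrophils are recognized were lower. S100a8 (chromosome 3 from 90668978 to 90670035) was lower in 10 of 10 samples, at a median of 15434 CPM (1223 to 47353) against 79537 CPM (45120 to 131640), a ratio of -2.69 ± 1.49. S100a9 had -2.61 ± 1.44. The lowest level of both was in the relapse-free sum of mouse 7, the highest in the invasive margin of mouse 17. Retnlg, a resistin-like protein of mature neutrophils, had the largest difference of all, with 0 to 1161 CPM against 1655 to 20245 CPM, no overlap and a ratio of -5.30 ± 1.24. The G-CSF receptor Csf3r had -1.74 ± 1.12 and the lipase inhibitor G0s2 -2.69 ± 1.83, each lower in 10 of 10. Of 16 neutrophil identity genes, 6 were counted lower, none was higher, and none had a mean above 0, with a median of -1.77. Their summed level was 6679 to 72570 CPM against 96570 to 200692 CPM, lower in every sample, without overlap.

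Granule genes were low as well. Of 10 measured granule and immaturity genes 3 were counted lower, Lcn2 (-2.69 ± 1.23), Wfdc21 (-3.04 ± 1.07) and Anxa1 (-2.68 ± 1.12), with a median of -2.17. Camp had 3 UMIs and Ngp had 1 UMI over the 10 sums. Haptoglobin, Hp, had -3.31 ± 1.24. Matrix metalloproteinase Mmp9, stored in tertiary granules, had -1.96 ± 1.20 and was lower in 9 of 10. Interferon response genes had a median of -0.71 over 29 genes, and of -0.37 over the 7 MET and core sums. Their summed level was higher in 2 of 10 samples, MET mice 31 (37456 against 25762 CPM) and 32 (25137 against 24788 CPM). Of the 29, Ifi27l2a was counted lower (-2.52 ± 1.50). Ifit3 itself, which names another neutrophil label, had -0.80 ± 1.77 and was as high as 3593 CPM in core mouse 17.

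**Figure D4:**
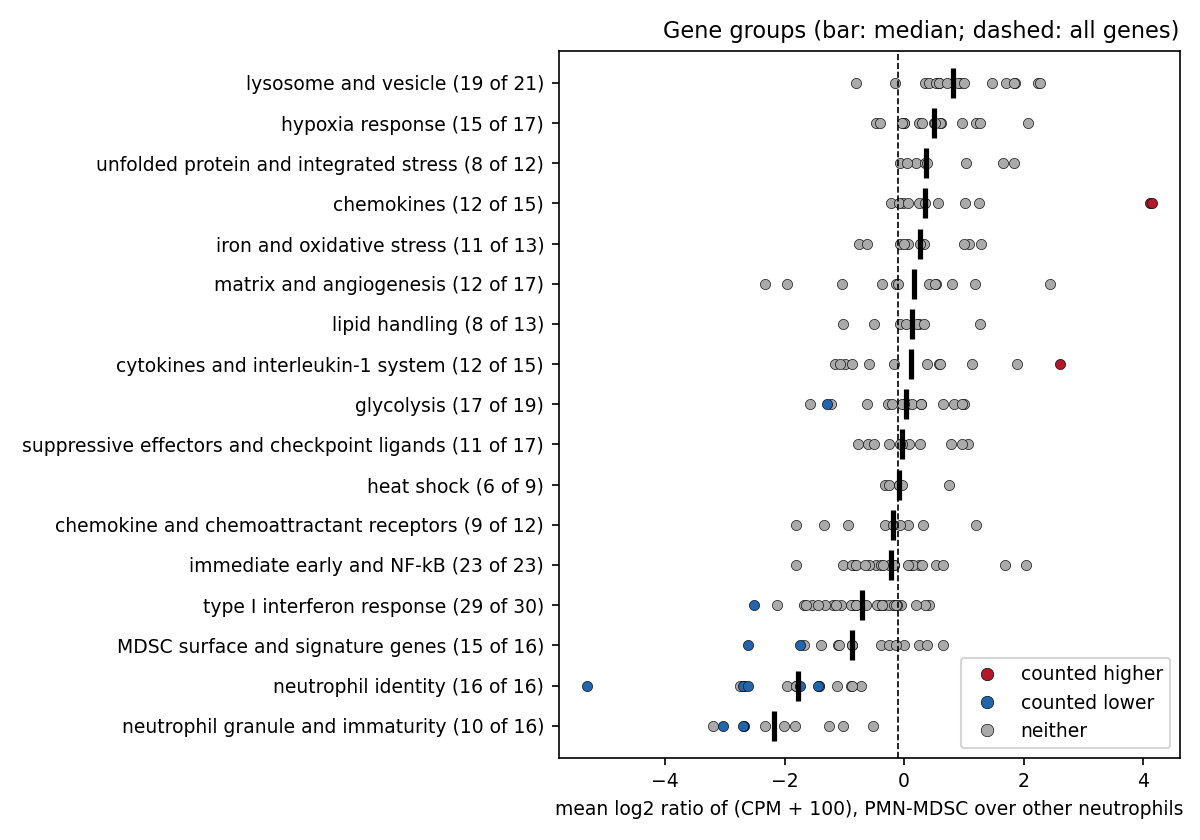
Mean log2 ratio of CPM + 100, PMN-MDSCs over other neutrophils (x axis, 10 samples), for each measured member of 17 gene lists (y axis, with members measured of members listed), colored by whether the gene was counted higher or lower in all 10 samples. Black bars mark list medians, from 0.81 for lysosome and vesicle genes to -2.17 for granule genes, and the dashed line marks the median of -0.10 over all 6025 genes.

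Markers of other cell types were read at different levels. T cell markers summed to 6 UMIs over the 10 PMN-MDSC sums, B cell markers to 4, NK markers to 15 and epithelial and tumor markers to 10. Of the NK marker UMIs, 7 lay in the relapse-free sum (659 against 411 CPM). The 8 measured macrophage and monocyte markers had 79 UMIs, a median ratio of 0.17 and a summed level of 0 to 3081 CPM against 0 to 1362 CPM, higher in 3 of 10 samples. Dendritic cell markers had 61 UMIs, with 2 of 5 at 0, and were read in all 10 sums, at 94.1 to 2521 CPM against 88.8 to 347 CPM. They were higher in 7 of 10 samples, highest in the primary tumor sum, with a median ratio of 0.42, and of 0.08 over the 7 MET and core sums. The 4 hemoglobin genes had 392 UMIs and each had a mean ratio of 1 or more, with a median of 1.17. They summed to 0 to 21571 CPM against 0 to 781 CPM, higher in 5 of 10 samples, and were read mainly in MET mouse 37, the margin and core of mouse 17 and the core of mouse 37. The part of these transcripts in the differences above was not tested.

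Detection in single wells was compared next. After each cell had been thinned to 500 UMIs, Ccl3 was detected in 77.7% of all 139 PMN-MDSC cells and in at most 6.03% of the cells of any other neutrophil label, against 0.36% in naive CD4 T cells, which should lack it (medians of 906 and 933.5 UMIs per cell before thinning). Ccl4 was detected in 71.2% against at most 10.5%, and Il1rn in 56.8% against at most 20.8%. Csf1 was found in 28.1% against at most 4.76%, and Cd63 in 23.7% against 10.2% in Neut_Camp and at most 3.37% in the other labels. Cd274 was found in 8.63% against at most 2.61%. Il1b was detected in 66.2% of PMN-MDSC cells, compared with 97.7% of Neut_Ptgs2 and 22.4% of Neut_Camp cells. S100a8 was detected in 78.4%, compared with 95.3% to 100% of the other labels and 23.6% of naive CD4 T cells, which should lack it. Retnlg was detected in 10.8% of the cells. Leaving out the 12 cells with basophil genes gave 77.2% for Ccl3, 72.4% for Il1b, 83.5% for S100a8 and 18.1% for Cd63. The remaining cells were thinned in a separate random draw, so these changes do not come only from the cells left out.

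**Figure D5:**
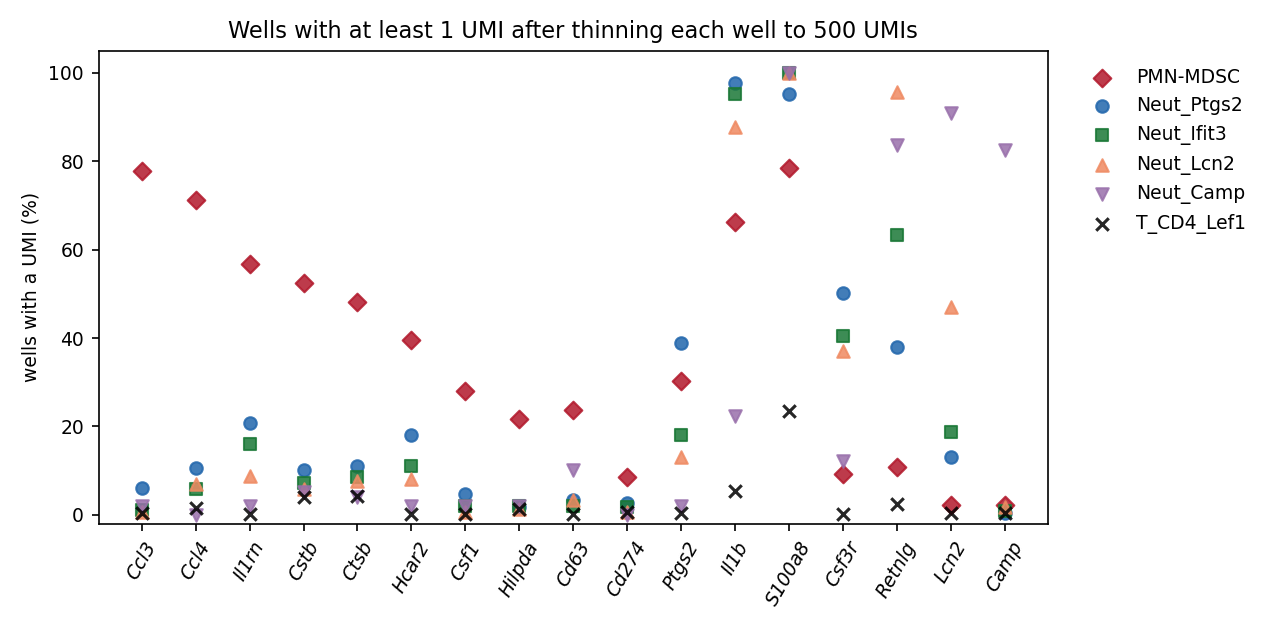
Percentage of cells with at least 1 UMI of a gene after thinning each cell to 500 UMIs (y axis), for 17 genes (x axis), in all 139 PMN-MDSC cells, in the 4 other neutrophil labels and in naive CD4 T cells (T_CD4_Lef1). Ccl3 is detected in 77.7% of PMN-MDSC cells and in at most 6.03% of any other group shown, whereas Lcn2 and Camp are at 2.16% in PMN-MDSC cells and at 90.8% and 82.7% in Neut_Camp.

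Each of the other neutrophil labels was also set beside PMN-MDSCs by itself. Against Neut_Ptgs2, 3 of 4245 genes were higher (0.0707%) and 43 lower (1.01%) over 10 samples, and Ccl3 (3.71) and Mpeg1 (1.88) were among the 3. Against Neut_Ifit3, 29 of 2470 genes were higher (1.17%) and 141 lower (5.71%) over 6 samples. Against Neut_Lcn2 there were 40 of 3382 higher (1.18%) and 123 lower (3.64%) over 7 samples, and against Neut_Camp 100 of 538 in each direction (18.6%) over 3 samples. The counts rest on different numbers of samples and genes, so their order is no measure of distance. Ccl3 was above each of the 4 labels (5.64 over Neut_Camp, 5.85 over Neut_Ifit3 and 5.76 over Neut_Lcn2), and Il1rn likewise (2.16 to 5.01). Il1b was below Neut_Ptgs2 (-1.12), Neut_Ifit3 (-0.94) and Neut_Lcn2 (-0.62) and above Neut_Camp (2.41). Lcn2 lay below each label, by -1.24 against Neut_Ifit3 to -4.80 against Neut_Camp.

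Across the 30 labels of the series with sums of at least 5 cells, PMN-MDSCs had the highest mean level of Ccl3, at 9777 ± 4021 CPM (SD, n = 10 samples), before dysfunctional CD8 T cells (T_CD8_Lag3) at 980 ± 1507 CPM (SD, n = 23). The lowest PMN-MDSC sum, at 3798 CPM, lay below the highest T_CD8_Lag3 sum at 7189 CPM, and the highest Neut_Ptgs2 sum, at 9287 CPM, lay above the PMN-MDSC median of 8400.4 CPM. Ccl4 was at 21981 ± 17270 CPM before T_CD8_Lag3 at 4625 ± 5889 CPM, a difference within the spread, and the highest Neut_Ptgs2 sum (24765 CPM) lay above the PMN-MDSC median. Il1rn (6062 ± 3340 CPM, next Neut_Ptgs2 at 904 ± 551) and Hilpda (1365 ± 805 CPM, next the tumor-associated macrophages Mac_Isg20 at 553 ± 426) were highest here too. Csf1 (945 ± 625 CPM, next Neut_Ptgs2 at 180 ± 232) and Cd274 (794 ± 1631 CPM, next migratory DCs at 243 ± 108) completed this group, Cd274 within its own spread. Cd63 came after the macrophages Mac_Gpnmb and migratory DCs, and Il1b after Neut_Ptgs2, Neut_Ifit3 and Neut_Lcn2. For S100a8 they ranked 6 of 30.

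Expression was then compared between tissues within the label, with edgeR's quasi-likelihood test on the sums. The metastasis core (4 sums) and MET (3 sums) did not differ in any of 168 genes at an adjusted p below 0.05 (0.0% called), with 5 genes at an unadjusted p under 0.05 and a smallest adjusted p of 0.0991. Core and MET share mouse 37. They were sorted by different gates, and the core sums of mice 17 and 28 came from sequencing batches without a MET sum. Gate and, in part, batch therefore cannot be told apart from tissue here. DESeq2 called 4 genes, among them the ATP-gated channel P2rx7, which was lower in the core (edgeR log2 fold change -3.41 ± 0.83 SE, adjusted p = 0.0991), at 0 to 1231 CPM against 2319 to 8057 CPM without overlap, and the lectin receptor Clec4d, at 3407 to 6156 CPM against 1020 to 1887 CPM (1.65 ± 0.53 SE, adjusted p = 0.321). The others were the predicted genes Gm26917 (743 to 3489 against 7140 to 34117 CPM) and Gm42418 (557 to 6362 against 5621 to 24971 CPM), both lower in the core. Ccl3 was at 11533 ± 3923 CPM (SD, n = 4) in the core and 6866 ± 2668 CPM (SD, n = 3) in MET, with an edgeR adjusted p of 0.979. Il1b was at 10102 ± 4639 and 9600 ± 3505 CPM, and Cstb at 4882 ± 1507 and 3994 ± 1331 CPM, with the same adjusted p. On simulated counts of this design edgeR found 25% of genes changed by a log2 fold change of 2.

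Only 1 primary tumor sum, the 5 cells of mouse 10, reached the minimum, so it was assumed to vary like the 7 MET and core sums (6 mice) it was compared with, and the fit compares this sum, not the tissues. On simulated counts of this design edgeR found 0% of genes changed by a log2 fold change of 2. Of 417 genes edgeR called 2 higher (0.48%) and 2 lower (0.48%), together 0.959%, with 1 called when low counts were kept and none of 191 against the 4 core sums alone (35 at an unadjusted p under 0.05). The values are given as a description. In this sum macrophage and monocyte markers stood at 3081 CPM (0 to 1847 CPM in the 7 MET and core sums), dendritic cell markers at 2521 CPM (161 to 744 CPM), and the share of mitochondrial UMIs was the highest of the 10 sums at 3.67%. Their part in the differences was not tested. Cstb had 0 of 3570 UMIs against 2582 to 6314 CPM (at least 5.36-fold lower, taking 3 UMIs as the limit), and Tyrobp, the signaling adaptor of myeloid receptors, had 0 against 3568 to 5772 CPM (at least 5.28-fold lower). The other called genes were Vps13d and Exosc4, where all 20 UMIs of Exosc4 lay in 1 of the 5 cells and the 23 UMIs of Vps13d in 2 cells, 16 of them in 1 cell. With DESeq2 4 genes were higher and none lower. The primary tumor sum came from a sequencing batch with only primary tumors, so batch and tissue cannot be told apart.

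In the other neutrophils, with 4 primary tumor and 16 metastasis sums, 2 of 367 genes were higher (0.545%) and 14 lower (3.81%) in primary tumors, together 4.36%. The primary tumors of mice 9, 10 and 38 came from the batch with only primary tumors, and only that of mouse 8 shared a batch with metastases. Tumors and lungs were also dissociated with different programs. Tissue therefore cannot be told apart from dissociation and, for most primary tumor sums, from batch. The metastasis sums came from 11 mice, of which 5 gave both MET and core, so the 16 sums are not independent and their p-values can be too small. With both tissues of a mouse added, 4 of 851 genes were higher and 42 lower. Tyrobp was among the lower genes here too, at 1950 to 2981 CPM against 3130 to 8923 CPM (log2 fold change -1.23 ± 0.32 SE, edgeR adjusted p = 0.0251). The test of the difference between both tissue effects, which rests on the same single primary tumor sum of PMN-MDSCs, called 4 of 1784 genes (0.224%), Fnbp1, Cep170, Akap9 and Exosc4, all higher in the primary tumor PMN-MDSCs and each read from 1 cell with 4 to 20 UMIs. With the sample as a replicate block edgeR called 0 of 1267 genes, with 89 at an unadjusted p under 0.05, and DESeq2 without the block called 8.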

How the data were processed

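The authors sorted single cells into 384-well plates, demultiplexed the reads with bcl2fastq (2.15.0.4 in the submitters' processing notes), mapped them to mm10 with HISAT without reads that mapped more than once, counted 3' UMIs in exons, discarded wells under 500 UMIs and clustered the rest into metacells with manual tuning. The deposited plate files give UMI counts without normalization for 52634 genes on 148 plates, and a deposited cell table gives the labels. No doublets were called here.

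Shares were compared with two-sided permutation tests and Benjamini-Hochberg adjustment over 6 comparisons. Wells were summed per mouse and tissue (at least 5 cells). Between labels, log2 ratios of CPM + 100 were averaged over samples for genes with at least 20 UMIs, with no test, since the labels came from the same counts. Between tissues, edgeR 4.0.16 (quasi-likelihood test, TMM, filterByExpr, adjusted p below 0.05) was used, with DESeq2 1.42.0 as an alternative. Of these, edgeR was also run on simulated counts, and DESeq2 was not. Same-numbered samples came from the same mouse. Tissues of a mouse were paired only in the sign-flip test of the shares. The blocked edgeR fit paired the labels within a sample, and the other edgeR fits were unpaired. Each mouse is a replicate by its label. The smallest sum of 3570 UMIs limits the precision, since 1 UMI there is 280.1 CPM.

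The named genes were the study's genes for these cells, the genes naming the other labels, the counted genes with the largest ratios (up to 20 higher and 10 lower) and up to 4 members of each of 24 lists. Genes singled out beyond these were chosen after their values were seen. Members and lists were chosen with earlier results of these data known. Coordinates are from GENCODE vM21 (mm10). Expression in distal normal, Pre-MET and control tissue was not compared, since no sum there reached 5 cells.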

Additional observations from a re-analysis of the deposited data

Results flagged for a closer look

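In groups of 4 to 10 samples, a sample was singled out when its gap to the nearest other sample took an unusually large part of the group's range. Chance does so in about 1 of 20 groups of normally distributed values, a rate that does not hold where most values are tied. In the invasive margin the other samples were all at 0%, so a lone sample above 0% was singled out whatever its size. This met 1 of 5 tissue groups and 8 of 96 named genes.

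The invasive margin of mouse 17 had a PMN-MDSC share of 2.33% of neutrophils, with the other 4 margin samples at 0%. In the relapse-free sum of mouse 7, the log2 ratio to the other neutrophils was -6.61 for S100a8 (next lowest -2.96), -6.35 for S100a9 (next lowest -3.48) and -1.12 for Cd3g. In that sum 6 of 11 cells held UMIs of basophil genes, and their part in these ratios was not tested. The primary tumor sum of mouse 10 had a ratio of 0.00 for Sqstm1, with 0 UMIs on both sides, and of -4.47 for the heat shock gene Hspa1a. Dgat2, which makes triglycerides, had a ratio of 2.84 in the core of mouse 28, the T cell marker Cd8a of 0.95 in MET mouse 32, and the alveolar surfactant gene Sftpc of 1.25 in the core of mouse 17.

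The edgeR interaction test of label and tissue, whose primary tumor arm of PMN-MDSCs is 1 sum of 5 cells, called Fnbp1 (12.27 on the log2 scale, adjusted p = 0.0349), Cep170 (12.16, adjusted p = 0.0349), Akap9 (11.70, adjusted p = 0.0400) and Exosc4 (9.47, adjusted p = 0.0400). Each rested on 4 to 20 UMIs in 1 cell of the primary tumor sum against 0 UMIs in the other primary tumor neutrophils, so the fitted sizes are no bounds and the values describe single cells, not the tissue. With the sample as a replicate block 0 of 1267 genes were called, with a smallest adjusted p of 0.234.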

How the results depend on the processing

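Of 108 alternative values of the share comparisons, 101 kept their direction and their side of the threshold. With the mouse as a replicate block, the difference of the core from distal normal tissue was 17.0 points (adjusted p = 0.125) and that of MET 2.32 points (adjusted p = 0.125), and with only cells of at least 1000 UMIs they were 17.2 and 7.93 points (adjusted p = 0.210 for each), all past the threshold no more. The block changed no other call on the shares. For core and MET against distal normal tissue the blocked test could not have passed the threshold, as given above. Primary tumor against core turned to 3.08 points with at least 10 neutrophils per sample, to 2.41 without primary tumor mouse 9 and to 0.552 without core mouse 36. Leaving out each sample of either tissue in turn (for tissues of more than 5 samples an alternative chosen after seeing the data) gave -10.4 to 2.41 points there, 13.6 to 19.5 for core against margin, 14.02 to 19.90 for core against distal normal tissue, 2.36 to 3.69 for MET against distal normal tissue, 6.23 to 19.1 for primary tumor against Pre-MET and 0 to 0.746 for Pre-MET against control. Without the cells with basophil genes (an alternative chosen after seeing the data) the core exceeded distal normal tissue by 16.6 points (adjusted p = 0.0147). Against the other neutrophils, 20 of 6025 genes were lower with a pseudocount of 500 CPM. With sums of at least 10 cells (5 samples), 48 of 4715 genes were higher and 205 lower. With cells of at least 1000 UMIs (3 samples) the counts were 152 and 279 of 3099 genes. Over the 7 MET and core sums (chosen after seeing the data) they were 41 and 85 of 4625. Fewer samples must share a sign there. Leaving out 1 sample at a time gave 8 to 17 higher (17 without relapse-free mouse 7, 14 without primary tumor mouse 10) and 47 to 90 lower (90 without core mouse 28). Of 1887 alternative values for named genes 1808 stayed within the spread between samples and 79 moved beyond it. No gene counted higher or lower changed sign. For the other named genes, sign changes were not tallied in every alternative. In an edgeR fit with sample and label as terms the median of all genes was -1.47, and 9 of 9 higher and 45 of 45 lower genes kept their sign. With so low a median, and from the same counts, the lower genes could hardly have changed sign. For primary tumor against metastasis, edgeR called 1 gene without a filter on low counts, 0 against the core sums alone, 5 with the margin sum added and 2 to 7 leaving out 1 sample at a time (2 without core mouse 17, 7 without MET mouse 37). At least 10 cells per sum, cells of at least 1000 UMIs and a batch with both tissues could not be run, since no primary tumor sum remained. For core against MET, DESeq2 called 4 genes, and leaving out 1 sample at a time gave 0 to 3 (1 without core mouse 37, 3 without MET mouse 37). For the other neutrophils the main fit called 16 of 367 genes. DESeq2 called 53 of 367, edgeR without the filter 197 of 15978, and MET and core added per mouse (chosen after seeing the data) 46 of 851. The same addition for PMN-MDSCs gave 6. The interaction gave 8 genes with DESeq2 and 0 with the sample as replicate block. The causes of these changes were not tested.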

Other observations

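Over the 7 MET and metastasis core sums, further genes that were higher in PMN-MDSCs than in the other neutrophils of each sample included the lectin receptor Clec4n (dectin-2, mean log2 ratio 2.32 ± 1.21 SD, n = 7), the membrane rupture protein Ninj1 (2.10 ± 0.62), the lysosomal galactosidase Gla (1.97 ± 0.89), the decoy TRAIL receptor Tnfrsf23 (1.73 ± 0.61), the apoptosis regulators Cflar (1.42 ± 0.94) and Bax (1.38 ± 0.63), the transcription factor Bhlhe40 (1.36 ± 0.55) and the receptor of platelet-activating factor, Ptafr (1.01 ± 1.01). These genes were chosen after their values were seen, and the differences carry no test because the labels were made from the same counts. Among the genes counted lower in all 10 samples were the cytoskeletal and adhesion genes Tmsb4x, Coro1a, Lcp1, Arpc3 and Itgb2, the last encoding the shared chain of the leukocyte integrins.

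The relapse-free sum of mouse 7 held 26 of the 28 UMIs of Il6 that the 10 PMN-MDSC sums gave, where the other neutrophils of the same samples gave 3. In that sum 6 of 11 cells held at least 2 UMIs of basophil genes, and their part in the Il6 UMIs was not tested.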
